A study of Macaca mulatta with 14 samples.

Results

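The complement system is a cascade of plasma and cell surface proteins that tags microbes and dying cells for removal. Here, 10 genes of this system were followed in PBMC of rhesus macaques, the peripheral blood mononuclear fraction that holds lymphocytes and monocytes: the 3 subunits of the recognition molecule C1q (C1QA, C1QB, C1QC), the enzyme factor D (CFD), the receptors C3AR1, C5AR1 and CR1, and the membrane regulators CD46, CD55 and CD59. Members were the probe sets, the groups of array probes that measure 1 transcript, whose only gene symbol in the platform annotation was one of these names. That gave 8 of the 10 genes and 15 probe sets, out of 14132 genes and 24956 probe sets with a single symbol. C3AR1 and CD59 had no such probe set and were not analysed here. Of the 15 probe sets, 12 passed the filter on low signal, and each of the 8 genes kept at least 1.

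Transcript levels in PBMC of old male monkeys were compared between diets. The control group was 7 animals on a control diet, aged 24 to 27 years, and the CR group was 7 animals under calorie restriction, aged 24 to 30 years. Blood was taken after 16 years of CR, although the wording leaves it unclear whether this holds for the CR group alone, as is assumed here. The samples are labelled as biological replicates, each hybridised to 1 Affymetrix array, and are called control 1 to control 7 and CR 1 to CR 7 (with a space, unlike the gene CR1). The deposited values are MAS5 signals, a relative brightness on a linear scale with no absolute unit, so the level of 1 gene is not compared with that of another.

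C1q opens the classical pathway when it binds antibody or altered cell surfaces, and unlike most complement proteins it is made by macrophages, dendritic cells and some monocytes rather than by the liver. Factor D is the serine protease that activates the alternative pathway. C5AR1 is the receptor for the fragment C5a and draws phagocytes to inflamed sites. CR1 binds C3b and C4b, CD46 is a cofactor for their cleavage, and CD55 (decay-accelerating factor) takes apart the enzymes that split C3 and C5 on the body's own cells. In the current RefSeq gene table (assembly T2T-MMU8v2.0) C1QB, C1QC and C1QA follow each other without another coding gene between them. In the same table CD55, CR2, CR1, CR1L and CD46 form a second run of neighbours, also on chromosome 1. CR1 has a close relative in CR1L, and whether the CR1 probe set separates them is not given in the sources used here.

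No complement gene separated the diets. Of the 12 tested probe sets, 0 passed an adjusted p under 0.05 (limma, Benjamini-Hochberg over 26383 probe sets), against 0% of all tested probe sets, and 0 passed an unadjusted p under 0.05, against 5.12% (2.29% higher and 2.82% lower in CR). The same linear model without limma's moderation of variances also called 0. The values of the diets overlapped in all 12, where groups without overlap made up 0.0834% of all tested probe sets. With each gene represented by its brightest tested probe set, 3 of 8 were on the higher side in CR, where 48.1% of all tested probe sets lay. The median difference was -0.077 log2 units over the 8 genes and 0.025 over all 9355 tested genes taken the same way, of which 5049 were on the higher side. Over all tested probe sets it was -0.012. The differences ran from -0.44 for CD55 to 0.38 for C1QA.

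**Figure D1:**
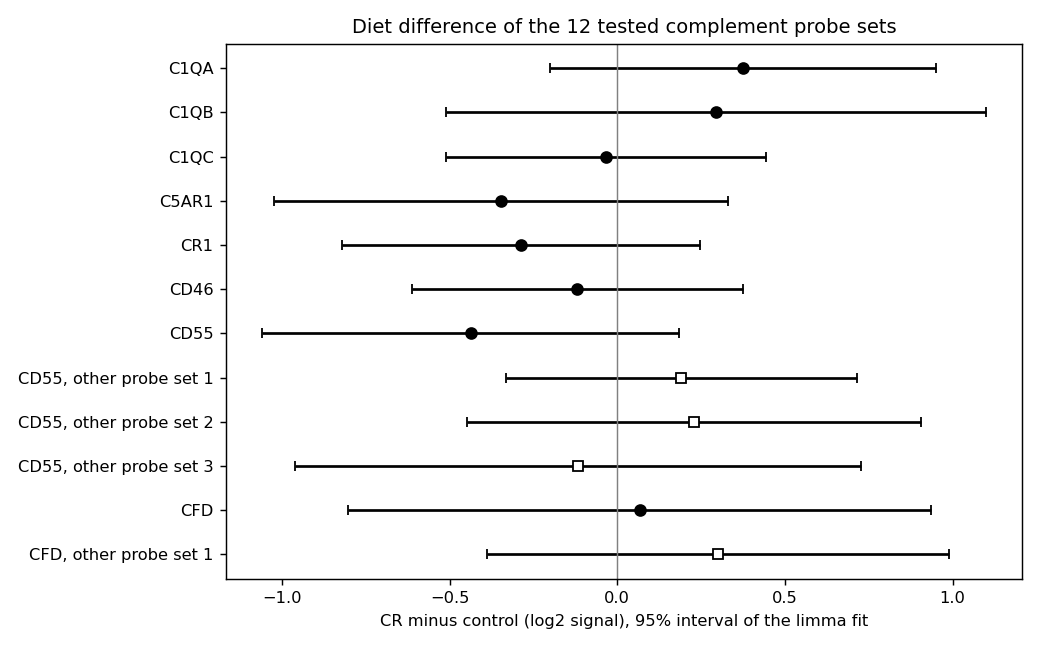
Diet difference (CR minus control, log2 signal, x axis) of the 12 tested probe sets with the 95% interval of the limma fit, filled circles for the brightest probe set of a gene and open squares for the others. Every interval crosses 0, and the CD55 probe sets lie on both sides of it.

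Control 1 and CR 6 were low for the whole group of genes. In each of these arrays all 8 genes lay below their median over the 14 arrays. Control 1 held the lowest value of 5 genes and CR 6 that of 2. Control 1 also correlated least with the other arrays over all tested probe sets (median r = 0.879, against 0.908 to 0.933 for the others). Its log2 ratios of 3-prime to 5-prime control probes, a measure of RNA integrity in which a high value means more degraded or shorter copies, were the highest for GAPDH (7.50) and EF1A (5.38), where the other arrays ran up to 6.87 and 4.31. For ACTB it was at 10.67, below control 2 (11.13) and CR 2 (12.78). Control 1 had the lowest summed signal of 4 non-classical monocyte markers, 3468 where the other arrays began at 7689.8, and the lowest sum of 11 classical markers among controls (41790.5). CR 6 had the lowest summed signal of those classical markers over all arrays, 8976 against 41790.5 to 95492 in controls. What part RNA integrity and monocyte content had in these values was not tested.

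The C1q subunits had differences of both signs. C1QA, the A chain, was at 523, 1061 and 1755 (lowest, median and highest signal) in controls and at 712, 1538 and 1704 in CR. In CR, 6 of 7 animals stood above the control median, CR 6 being the exception, yet the whole CR range lay inside that of the controls. The difference was 0.38 ± 0.27 (log2, SE, n = 7 a group), a 1.30-fold higher signal with a 95% interval from 0.870 to 1.93, and it did not pass (adjusted p = 0.924, limma). Without control 1 it was 0.21, and without CR 6 it was 0.53.

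C1QB, the B chain, was at 171, 696 and 1737 in controls and at 405, 804 and 1271 in CR. The controls held both extremes, with control 1 at the bottom and control 2 at the top, and spanned 10.2-fold. The difference was 0.29 ± 0.38 (adjusted p = 0.95, limma) and was -0.0099 without control 1, so its direction rested on that array, and 0.55 without control 2.

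C1QC, the C chain, was at 114, 206 and 255 in controls and at 146, 184 and 241 in CR. The CR range again lay inside the control range, and 3 of 7 CR animals were above the control median. The difference was -0.035 ± 0.23 (adjusted p = 0.992, limma), with an interval from 0.701-fold to 1.36-fold.

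A dimmer C1QA probe set fell below the filter and was not tested in the main fit. Fitted with no filter it differed by -0.53 ± 0.48 (adjusted p = 0.957, limma), opposite in sign to the brighter C1QA set. It read 45.5, 115 and 161 in controls and 10.2, 77.6 and 196 in CR, with 1 array under the floor of 16.

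Factor D varied more between animals than most transcripts. Its brighter probe set read 6713, 16658 and 32919 in controls and 8743, 11224 and 49456 in CR, a 7.37-fold span over the 14 animals. The spread within groups (SD 0.91 log2 units) was larger than that of 91.5% of tested probe sets. The highest values were in CR 2 and CR 1, and the lowest in control 1 and CR 7, so high and low animals occurred on both diets. The difference was 0.067 ± 0.41 (adjusted p = 0.992, limma) and became -0.16 without control 1. The dimmer CFD probe set read 158, 219 and 669 in controls and 204, 324 and 682 in CR, a difference of 0.30 ± 0.33 (adjusted p = 0.94, limma), and 6 of 7 CR animals exceeded the control median. Without CR 2 it was 0.13, without control 1 it was 0.17, and without both -0.0026. The log2 ratio of the brighter to the dimmer set differed by -0.23 ± 0.38 between diets (adjusted p = 0.937 over all within-gene ratios, limma, where 0% passed), and by -0.0051 without CR 3 and -0.43 without CR 5.

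The receptors C5AR1 and CR1 both had the lower mean in CR. C5AR1 read 2936, 4475 and 6259.8 in controls and 1143, 3385 and 6975 in CR. The CR group held both the highest animal (CR 5) and the lowest (CR 6), and 2 of 7 CR animals (CR 2 and CR 5) exceeded the control median. The difference was -0.35 ± 0.32 (adjusted p = 0.932, limma), a 0.787-fold signal with an interval from 0.492 to 1.26. Without CR 6 it was -0.082, and without CR 6 and CR 7 together -0.0037.

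CR1 read 63.1, 121 and 147 in controls and 70.6, 91.3 and 116 in CR. No CR animal exceeded the control median, but control 1 was the lowest of all 14, so the ranges overlapped. The difference was -0.29 ± 0.25 (adjusted p = 0.932, limma) and -0.42 ± 0.23 without control 1 (adjusted p = 0.809, limma). The probe set was dim, at a geometric mean signal of 98.6 where the filter let in probe sets from 87.7.

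CD46, the cofactor, read 152, 226 and 255 in controls and 115, 202 and 273 in CR, with a difference of -0.12 ± 0.23 (adjusted p = 0.966, limma). Its interval ran from 0.654-fold to 1.30-fold. The lowest CR values were in CR 6 and CR 2, and without CR 6 the difference was 0.0026.

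**Figure D2:**
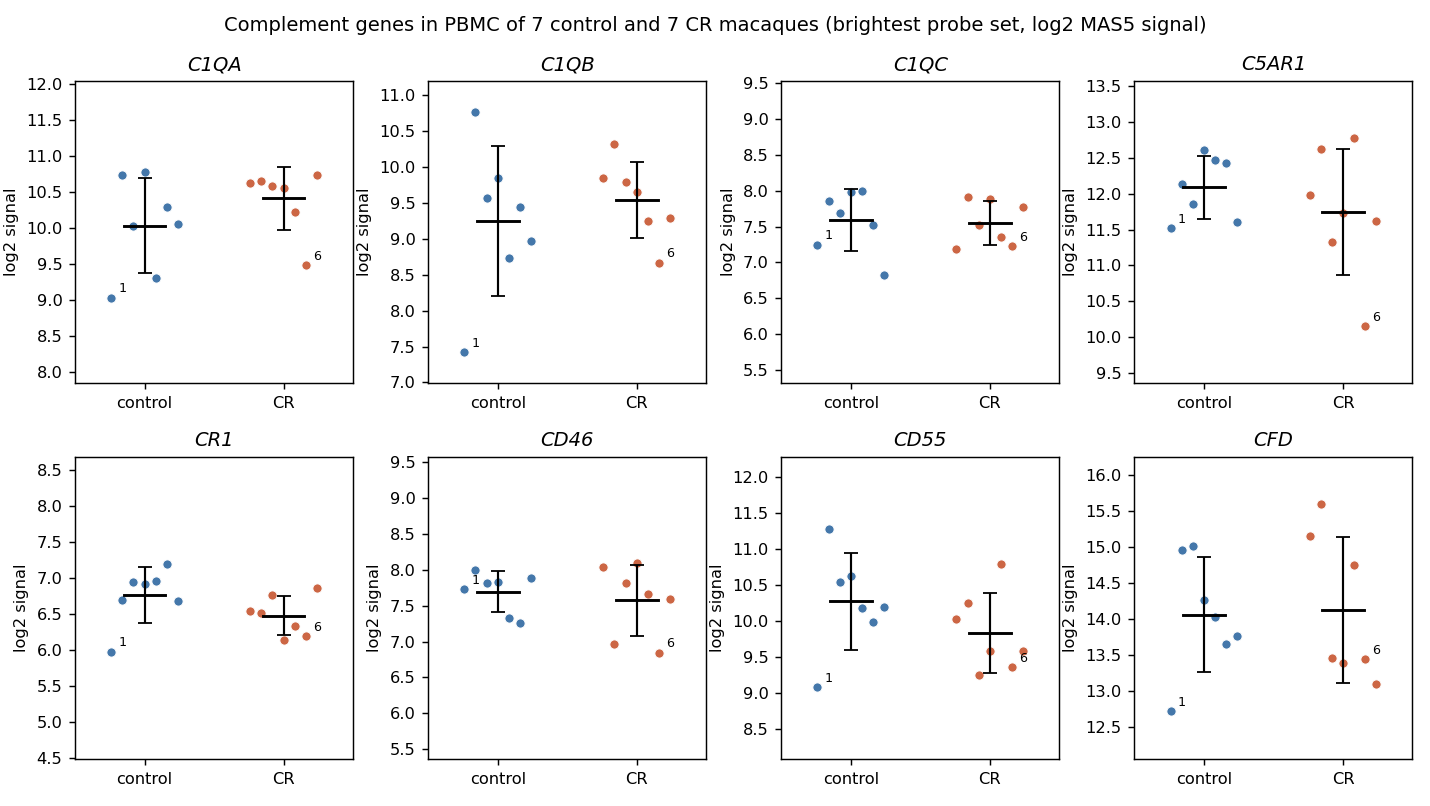
Log2 MAS5 signal (y axis, the same span in every panel) of the brightest probe set of each of 8 complement genes in 7 control and 7 CR animals, 1 point per animal, with the group mean and SD in black and control 1 and CR 6 marked by their number. The groups overlap in every panel, and control 1 and CR 6 lie low in most of them.

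CD55 was measured by 6 probe sets, and the differences of the 4 tested ones had both signs. The brightest (MmuSTS.4029.1.S1_at) read 540.4, 1169.7 and 2483 in controls and 604, 767 and 1775 in CR, and 2 of 7 CR animals exceeded the control median. It differed by -0.44 ± 0.30 (adjusted p = 0.924, limma), by -0.64 without control 1 and by -0.27 without control 2. The next (MmugDNA.34572.1.S1_at) read 349, 639.6 and 982 in controls and 519.9, 812 and 1131 in CR, a difference of 0.19 ± 0.25 (adjusted p = 0.95, limma).

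The next dimmer set (MmugDNA.31780.1.S1_s_at) followed it closely, with r = 0.967 over the 14 arrays (rho = 0.938, permutation adjusted p = 7e-05 for each over 7 pairs of probe sets of the same gene). Leaving out the 2 arrays farthest from the median gave r = 0.941. It read 256, 607 and 1055 in controls and 361, 757 and 1208 in CR, a difference of 0.23 ± 0.32 (adjusted p = 0.952, limma). Without control 1 the differences of these 2 sets were 0.036 and 0.034, so their size rested on that array. The brightest set was less close to both, at r = 0.60 and r = 0.62 (rho 0.51 and 0.58, permutation adjusted p of 0.0443 for both r and of 0.11 and 0.077 for rho). Without control 1 and control 2, the farthest arrays, these were r = 0.38 and r = 0.40, so the relation rested on that pair of arrays.

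The dimmest tested set (MmugDNA.31780.1.S1_at) read 53.6, 103 and 208 in controls and 50.3, 72.1 and 236 in CR, a difference of -0.12 ± 0.40 (adjusted p = 0.98, limma). The last 2 fell below the filter, with signals under the floor of 16 on 4 and 8 of the 14 arrays, and were not tested in the main fit. Fitted with no filter they differed by 0.18 ± 0.46 and 0.73 ± 0.46 (adjusted p = 0.988 and 0.957, limma).

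The log2 ratio of the brightest CD55 set to MmugDNA.34572.1.S1_at, taken within each array, was between 0.63 and 1.34 in controls (mean 0.90 ± 0.27, SD, n = 7) and between -0.57 and 1.13 in CR (mean 0.27 ± 0.53, SD, n = 7). It was below the lowest control in 6 of 7 CR animals, CR 5 being the exception. The ratio to MmugDNA.31780.1.S1_s_at was 1.09 ± 0.28 in controls and 0.43 ± 0.59 in CR, with 4 of 7 CR animals below the lowest control. The ratios differed between diets by -0.63 ± 0.23 and -0.67 ± 0.25 (SE), with unadjusted p of 0.0144 and 0.0152 (limma), and they ranked 77 and 85 among 5570 such within-gene ratios. Neither passed over all those ratios (adjusted p = 0.868 for both, limma), where 5.15% had an unadjusted p under 0.05 and 0% passed. The ratio to the dimmest tested set differed by -0.32 ± 0.47 (adjusted p = 0.934, limma), from -0.59 without control 1 to -0.049 without control 2. These CD55 ratios were looked at after their values had been seen. The first 2 share the brightest set, and their other sets followed each other at r = 0.967, so they are not independent. With any 1 array left out the first 2 stayed between -0.79 and -0.48. The 3-prime to 5-prime log2 ratio of GAPDH ran from 5.06 to 7.50 in controls and from 6.03 to 6.87 in CR, and its part in the CD55 ratio was not tested. Which CD55 transcripts each probe set covers is not given in the sources used here.

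**Figure D3:**
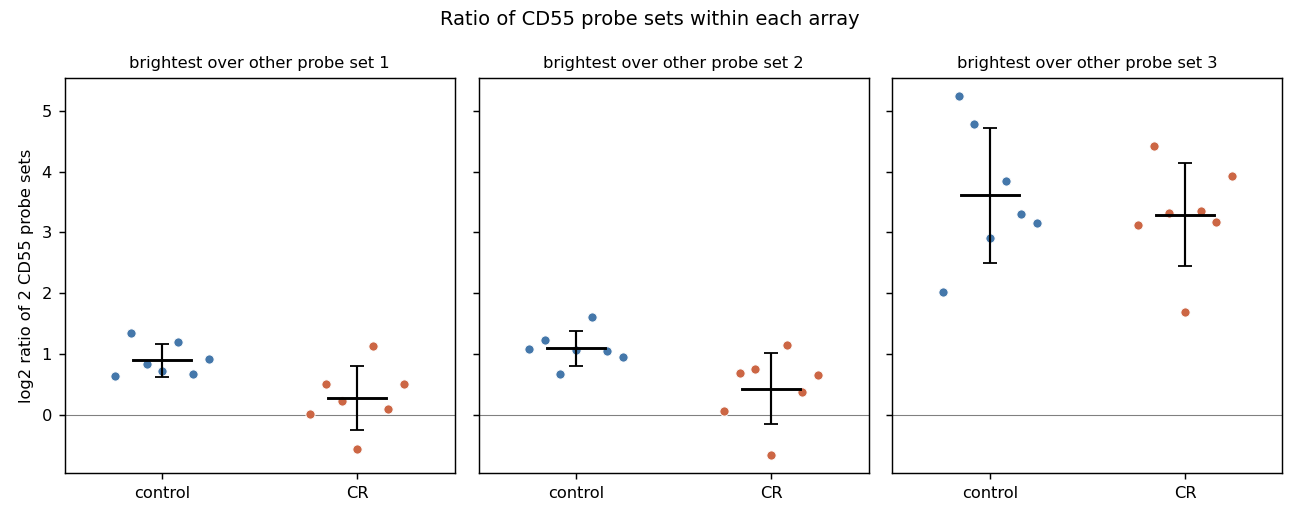
Log2 ratio (y axis) of the brightest CD55 probe set to each of the other 3 tested sets, in order of brightness, within each of 7 control and 7 CR arrays, with group means and SD in black. In the first panel 6 of 7 CR points lie under the lowest control, and in the third the diets overlap widely.

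Across animals r was above 0 in 26 of the 28 pairs of complement genes (median 0.36, and 0.25 without control 1), and the share over other gene pairs was not computed. A permutation test adjusted over the 28 was passed by 2 pairs on r and by 3 on rho. C1QA and C1QB had r = 0.87 and rho = 0.83 over the 14 arrays (permutation adjusted p of 0.00112 and 0.0143). The relation held at r = 0.75 without control 1 and control 5, the arrays farthest from the median of C1QA, and at 0.91 within controls and 0.79 within CR (7 arrays each). C1QC was less close to either, at r = 0.46 with C1QB (adjusted p = 0.364, permutation) and r = 0.34 with C1QA (adjusted p = 0.373, permutation).

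CFD and CD55 had r = 0.76 and rho = 0.77 (permutation adjusted p of 0.0311 and 0.0251). It was 0.68 without control 1 and control 2, 0.92 within controls and 0.77 within CR. Without control 1 alone the adjusted p was 0.121 (permutation), with r = 0.70, and without control 3, CR 5, CR 6 or CR 7 it was between 0.0505 and 0.0526 (permutation). C5AR1 and CD55 passed on ranks only (rho = 0.75, adjusted p = 0.0285, r = 0.66, adjusted p = 0.0699, permutation). Many transcripts were closer than these partners. By r among 9354 others, CD55 was at rank 177 for CFD. For CD55, CFD was at rank 56 and C5AR1 at rank 224. Of the 3 genes in 1 run of neighbours, CR1 and CD55 had r = 0.38, CD46 and CD55 0.20, and CD46 and CR1 -0.028, and none passed.

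**Figure D4:**
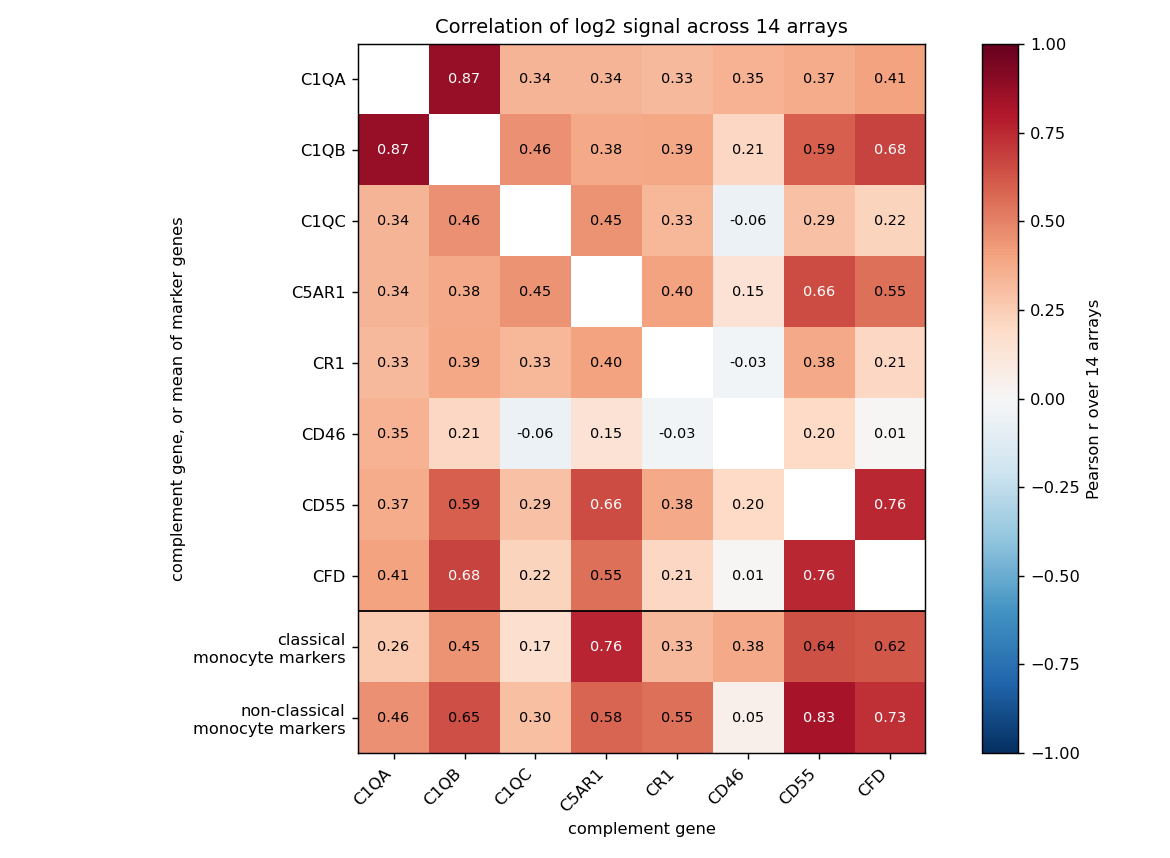
Pearson r of log2 signal over 14 arrays for each pair of 8 complement genes (upper block) and for each gene against the mean log2 signal of 11 classical and 4 non-classical monocyte markers (lower rows), blue for negative and red for positive. Each gene is given by its brightest tested probe set. The darkest cells are C1QA with C1QB (0.87) and CD55 with the non-classical monocyte markers (0.83).

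Monocyte markers moved with some of these genes and are given here beside them. In a mixed sample, fewer cells of a type and less RNA per cell cannot be told apart. Of the classical markers, such as CD14 and the S100 proteins, 11 of 13 were tested and all 11 were on the lower side in CR, none passing (summed signal 41790.5 to 95492 in controls and 8976 to 80474 in CR). The lowest classical sums were in CR 6 (8976) and CR 7 (14504). Of the non-classical markers 4 of 9 were tested (MS4A7, LST1, CX3CR1 and TCF7L2), and all 4 were on the lower side (3468 to 23022 in controls, 7689.8 to 20512 in CR). Over all 9355 tested genes 4306 were on the lower side. FCGR3A and CDKN1C, which define these cells, had no single-gene probe set.

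Among the 16 relations of 8 genes to 2 marker means, 5 passed the permutation test of r. The share of all tested genes that would pass against the same marker means was not computed. C5AR1 followed the classical markers (r = 0.76, rho = 0.73, permutation adjusted p of 0.008 and 0.016). Without CR 6 and CR 7, the farthest arrays, r was 0.58 and no longer passed (adjusted p = 0.105, permutation), and without CR 6 alone r was 0.56 (adjusted p = 0.0839, permutation). The brightest CD55 probe set followed the non-classical markers (r = 0.83, rho = 0.93, permutation adjusted p of 0.00144 and 0.00016), with r = 0.83 without control 1 and CR 3, 0.82 within controls and 0.89 within CR. C5AR1 passed with them on ranks only (rho = 0.74, adjusted p = 0.016, r = 0.58, adjusted p = 0.0757, permutation), with r = 0.72 without control 1 and 0.76 without control 1 and CR 3. CFD also followed the non-classical markers (r = 0.73, rho = 0.78, permutation adjusted p of 0.008 and 0.0125), with r = 0.68 without those 2 arrays, 0.79 within controls and 0.83 within CR. Each gene was taken at its brightest tested probe set. The other CD55 and CFD sets were not correlated with the markers or with other genes.

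CD55 and CFD were closer to the limit with the classical markers (r = 0.64 and 0.62, adjusted p = 0.0494 for both, permutation), and these calls were lost in 12 and 10 of 21 alternatives, most of which leave out 1 array. C1QA had r = 0.26 with the classical and 0.46 with the non-classical markers, and the latter was 0.0033 without control 1. For C1QB the value with the non-classical markers went from 0.65 to 0.23 without that array. For CR1 it went from 0.55 to 0.28.

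**Figure D5:**
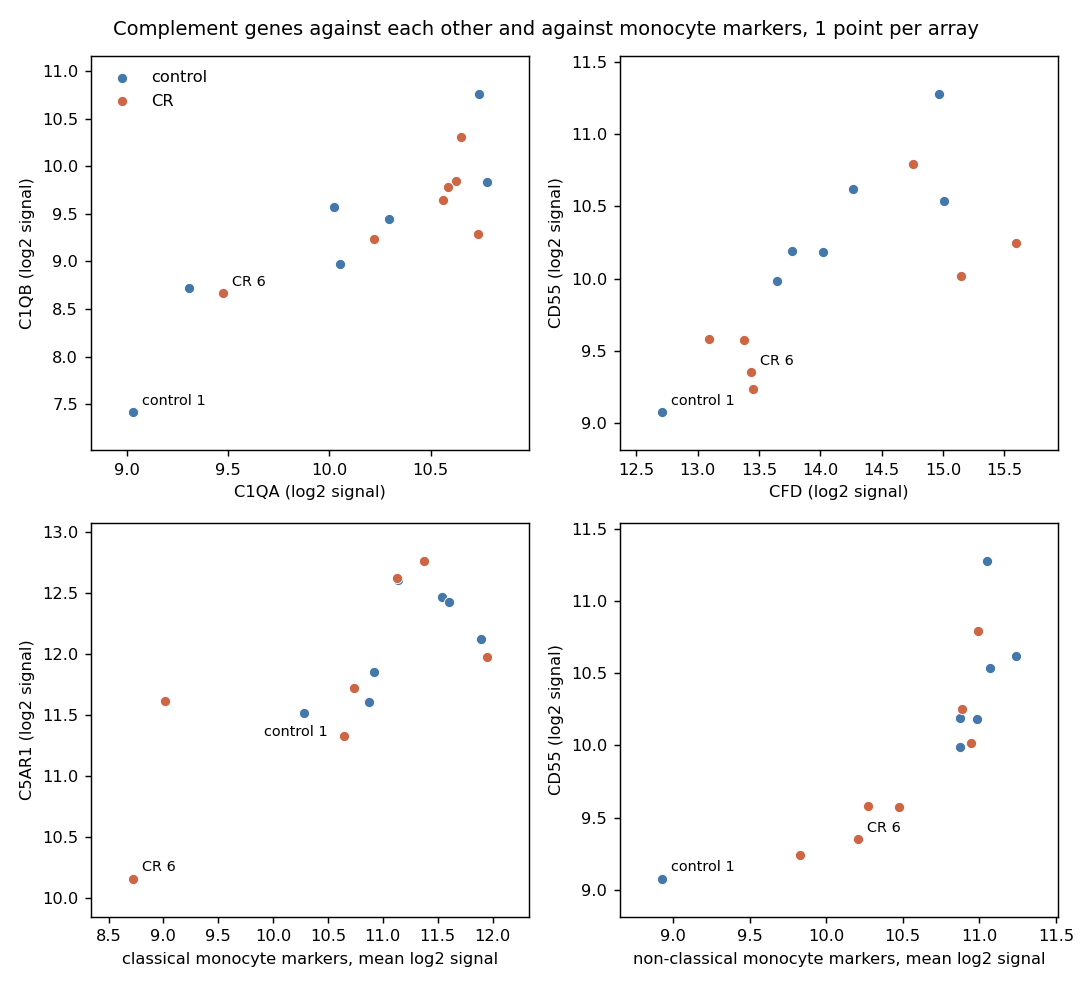
Each point is 1 animal, on log2 signal axes: C1QB against C1QA, CD55 against CFD, C5AR1 against the mean of classical monocyte markers, and CD55 against the mean of non-classical monocyte markers, with control 1 and CR 6 labelled. Each gene is given by its brightest tested probe set. Control and CR animals mix along each trend, and control 1 or CR 6 lies at the lower end of each panel.

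Signals of other blood cells were read in the same way. Of the NK and cytotoxic markers 8 of 9 were tested and 7 were on the higher side in CR (summed signal 72831 to 131513 in controls and 111429 to 183070.5 in CR). Of these, 4 had an unadjusted p under 0.05 and none passed after adjustment (limma). Such a p on the higher side was met by 296 of all 9355 tested genes and by 2.29% of all tested probe sets. Of the B cell markers 5 of 9 were tested and all 5 were on the higher side (6163 to 15558 in controls and 6347 to 20929 in CR). Over all 9355 tested genes 5049 were on the higher side. T cell markers were thinly covered, with 2 of 8 tested and the CD3 genes without a single-gene probe set. Their summed signal was 3125 to 5209.8 in controls and 3409 to 9618 in CR, and 1 of the 2 was higher in CR by 0.69 at an unadjusted p under 0.05. Macrophages are a main source of C1q in tissue, and 3 of 9 of their markers were tested (5022 to 8577 in controls and 4639.8 to 6694 in CR), with CD163 lacking a single-gene probe set and MARCO, VSIG4 and FOLR2 under the filter. Of the platelet markers 6 of 8 were tested (54234 to 136953 in controls and 30752 to 123332 in CR). Tested too were 4 of 11 neutrophil, 4 of 8 dendritic cell and 1 of 10 erythroid markers. Lower in CR were 2 of 3 tested macrophage markers, 3 of 6 platelet, 4 of 4 neutrophil and 3 of 4 dendritic cell markers. Over all 9355 tested genes 4306 were lower. The erythroid marker was higher, and none of these markers passed (limma). What part any of these cells had in the complement signals was not tested.

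The transcripts closest to each gene over the 14 arrays, among 9354 others and with each gene at its brightest tested probe set, were of mixed function. For C1QA they were SHC1 (an adaptor of growth factor receptors, r = 0.88), LOC697790 (0.88) and HEBP2 (0.87), with C1QB at rank 4. For C1QB they were GNG5 (a G protein subunit, 0.91), LOC697790 (0.89) and HBP1 (0.89), with C1QA at rank 8. For C1QC they were MCCD1 (0.76), CYTH3 (0.73) and CYSLTR2, a leukotriene receptor (0.70), and C1QB was at rank 168.

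For C5AR1 they were PON2 (0.92), GLUD1 (glutamate dehydrogenase, 0.91) and TTYH2 (0.91), and for CFD RNH1 (ribonuclease inhibitor, 0.92), LOC700880 (0.91) and MYZAP (0.91). For CD55 they were RHCG (0.89), PLXNB2 (0.87) and AIF1, a calcium-binding protein of monocytes and macrophages (0.87). For CR1 they were TGFBR2, a receptor for TGF-beta (0.81), DOP1B (0.77) and TBC1D14 (0.77), and for CD46 STAB1, a scavenger receptor (0.81), TEX9 (0.80) and ARHGAP18 (0.79). These r values are the highest out of 9354 per gene and only describe these 14 arrays.

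Other genes of the cascade stood mostly on the lower side in CR without a call. Of 48 listed genes 33 had a single-gene probe set and 15 were tested. At the brightest probe set of each, 3 were higher and 12 lower, with 0 passing and 1 at an unadjusted p under 0.05 (limma). Over all 9355 tested genes 4306 were on the lower side, 189 of them at an unadjusted p under 0.05. Of all tested probe sets 5.12% had such a p in either direction. The median difference was -0.20, against 0.025 over all tested genes. All 7 terminal pathway genes, C5 to C9, were on the array and below the signal filter. The recognition and protease genes of the classical and lectin pathways had 2 higher and 4 lower of 6, and the other regulators 0 higher and 4 lower of 4. CFB (factor B) and CFP (properdin), both of the alternative pathway, differed by -0.20 ± 0.20 and -0.12 ± 0.46. Among the other receptors ITGB2, a chain of CR3 and CR4, differed by 0.13 ± 0.28 in its brightest probe set. Its other 2 sets differed by 1.12 and -0.18. ITGAM differed by -0.19 ± 0.30. C1QBP differed by -0.024 ± 0.16 in its brightest probe set and by -0.30 ± 0.18 in the other. The ITGB2 set at 1.12 ± 0.43 (unadjusted p = 0.0172, adjusted p = 0.918, limma) was at the edge of the filter, with a mean log2 signal of 6.461 where the limit was 6.454. With a difference of that size the controls averaged under the limit, so the set passed the filter only through its CR values. The regulator THBD differed by -0.44 in its brightest probe set and by -0.34, -0.84 and -0.82 in the others. The set at -0.82 had an unadjusted p of 0.0196 (adjusted p = 0.918, limma). The signs of CFP, ITGB2, ITGAM and C1QBP each turned with 1 array left out.

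SUSD4, a membrane inhibitor of complement, had the smallest unadjusted p of these genes. It read 106, 187 and 209 in controls and 23.0, 56.6 and 212 in CR, and CR 1 alone among CR animals exceeded the control median. This probe set was dim as well. On the log2 scale the CR animals averaged 6.05, under the filter limit of 6.454 that applies to all arrays together, while the controls averaged 7.34. The difference was -1.29 ± 0.45 (unadjusted p = 0.0106, adjusted p = 0.918, limma), where 2.82% of all tested probe sets had an unadjusted p under 0.05 on the lower side.

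FCN1 (ficolin 1, a recognition molecule of the lectin pathway made by monocytes) read 672, 905 and 5055 in controls and 132, 806 and 2693 in CR. PTX3 (pentraxin 3, which binds C1q) read 1905, 8000.1 and 16521 in controls and 159.9, 4840 and 12178 in CR. The lowest 2 values of both genes were in CR 6 and CR 7, which were also lowest for the classical monocyte markers, a list that itself holds FCN1. FCN1 differed by -1.24 ± 0.60 and PTX3 by -1.51 ± 0.84 (adjusted p = 0.918 for both, limma). PTX3 was at -0.87 without CR 6, and without CR 6 and CR 7 together FCN1 was at -0.45 and PTX3 at -0.15, so most of both differences rested on those arrays. CSMD1 (a membrane complement inhibitor), MBL2 (mannose-binding lectin) and FCN3 (ficolin 3) differed by -0.53 ± 0.34, -0.68 ± 0.45 and 0.42 ± 0.34, and none passed. Without CR 6 MBL2 was at -0.28, and without control 6 FCN3 was at 0.17. All 3 were dim, and their values overlapped between diets.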

How the data were processed

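The deposited values are the authors' MAS5 signal intensities (linear scale). MAS5 is named without a version in the submitters' processing notes. How the signals were scaled and whether any were removed is not given in the sources used here. Probe sets were named from GEO's platform annotation, which can be old.

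Intensities under 16 were set to 16 and turned into log2 values. From 52865 probe sets, 99 AFFX controls were left out, and the upper 50% of the rest by mean log2 intensity was tested (26383). CR and control were compared in limma 3.58.1 (R 4.3.3, lmFit and eBayes with trend) with two-sided p, and adjusted by Benjamini and Hochberg's method at a threshold of 0.05. In simulated data the fit called 93% of changes of 2 log2 units and 43% of changes of 1, with 11 false calls. Every value was drawn independently there, with 200 of 26383 probe sets changed. The simulation held no shift shared by the probe sets of an array, so its rates need not hold for these arrays. In the fit of the deposited values the median SE was 0.25. The number of arrays limits the precision. Within-gene ratios were fitted in the same way over 5570 pairs. Correlations used 100000 permutations, two-sided, with p adjusted within families of 28, 16 and 7 relations. Where the farthest arrays were left out, distance was taken from the median of only 1 variable of each pair.

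Genes, lists and tests were chosen with earlier results of these data known. Described were all members, the 6 other cascade genes with the smallest p, and the 3 closest transcripts of each member. The remaining cascade genes are given by counts or differences. No genome build is named for the probe sets, so no coordinates are given, and the RefSeq table served only to name neighbouring genes. The correlations and the refits of other cascade genes were added after the data were seen. Alternatives changed the floor, filter, scaling, moderation, array weights and arrays.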

Additional observations from a re-analysis of the deposited data

Results flagged for a closer look

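Among the 24 groups of 7 values (12 tested probe sets, both diets, log2 signal), 2 held an animal apart from the others by Dixon's test, where chance gives about 1 in 20. CR1 was lowest in control 1, with a gap of 0.579 of the group's range to the next control. C1QA was lowest in CR 6, with a gap of 0.593 of the range. The limit for 7 values is 0.568, so both were just past it.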

How the results depend on the processing

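No probe set was called under any of the 27 alternatives (smallest adjusted p over all probe sets 0.085, without control 6), and the smallest adjusted p of the 8 complement genes at their brightest probe set was 0.744 (limma). Of 213 recomputed differences 195 kept their direction and 18 turned, all of them of C1QB, C1QC, CD46 or CFD, whose differences were small against their SE. Quantile normalization gave 0.012 for C1QC and -0.0088 for CFD, and array weights gave -0.13 for CFD. Without control 1 and CR 2 together C1QB was at -0.14 and CFD at -0.40, and without CR 6 and CR 7 together CD46 was at 0.022. With 1 array left out the differences ran from -0.0099 to 0.55 for C1QB, from -0.16 to 0.033 for C1QC, from -0.21 to 0.0026 for CD46 and from -0.18 to 0.24 for CFD. The cause was not tested. With the mean of all its tested probe sets CD55 was at -0.034. The replicate numbers of the titles were used as a block once: 0 probe sets were called, and CD55 stayed at -0.44. Same-numbered arrays deviated together only in part (r from -0.11 to 0.18, 4 of 7 pairs over 0.1, and 3 of 14 arrays closest to their own number), so the numbers were not taken to pair the animals. Unadjusted p under 0.05 was met by 1735 probe sets with the block and 1350 without it. The relation of CFD and CD55 lost its adjusted p in 7 of 21 alternatives and that of C5AR1 and the classical markers in 2, while that of C1QA and C1QB kept it in all 21. Counts at an unadjusted p under 0.05 were 2598 with no filter and 803 under a stricter signal filter, which removed C1QC, CR1 and CD46, the members most limited by low signal. The split of such calls was 605 higher and 745 lower in CR as deposited, 364 and 702 with arrays centred on the median of all probe sets, and 901 and 548 when centred on that of the tested ones, an alternative added after the data were seen. Those centrings turned no complement gene. The other cascade genes were refitted only with arrays left out, chosen after the data were seen.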

Other observations

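CFD, the protease of the alternative pathway, was close over the 14 arrays to 2 other genes of complement biology that it was not matched with in advance. CFP, which encodes properdin, the stabiliser of the alternative pathway's C3 convertase, was at rank 4 of 9354 transcripts (r = 0.91), and ITGB2 at rank 5 (r = 0.90). Both were picked out after their values had been seen.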
